A study of Mus musculus with 23 samples.

Results

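Bulk RNA sequencing of 23 primary mammary tumors from Brca1-deficient mice was examined by the level of Isg15, a ubiquitin-like protein that interferon induces strongly. The 7 tumors with the highest Isg15 were called Isg15-high, the 7 with the lowest were called Isg15-low, and the 9 between them entered neither set, so 14 of the 23 tumors were compared. The labels place every tumor in 1 group, and the members of both sets were chosen by the measured level of Isg15 alone. Isg15 and the other interferon-stimulated genes are therefore described without a test, and tests are given for the genes outside the interferon lists.

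According to the methods of the study the mice were MMTV-Cre; Brca1fl/fl, some of them also Trp53fl/+, on a mixed C57BL/6 and 129/Sv background. MMTV-Cre is used to delete floxed alleles in the mammary epithelium, and which other cells of a tumor carry the deletion was not measured here. The alleles of each tumor, the age of each mouse and the machine that sequenced each tumor are not given in the labels, so the sets may differ in any of these. The study's supplement names the mouse model of some tumors, and this was not used to form groups. It gives X9387T and X147T (both Isg15-low) as tumors of mice with the Brca1 alleles only. X731T (Isg15-high) and X4351T (between the sets) are given as tumors of mice that were also Trp53fl/+. The relation of these alleles to Isg15 was not tested. The titles of the tumors hold 19 numbers, 4 of which occur on 2 tumors each, and X493T1 and X493T2 are the only such pair that falls inside 1 set (Isg15-low). Separate animals are not stated for the rest, so p-values speak only of the spread among the tumors compared.

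Interferons are cytokines of the antiviral response. Type I interferons and interferon-gamma act through separate receptors, JAK kinases and STAT proteins, and the type I receptor turns on genes through a STAT and IRF complex that binds an element of repeated GAAA bases. The induced genes block viral replication, sense foreign nucleic acid and load peptides on MHC molecules. In tumors their level varies with both the cancer cells and the leukocytes, which bulk RNA does not separate, since fewer cells of a type and less RNA per cell cannot be told apart.

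All levels below are log2(FPKM + 1), where FPKM is fragments scaled to transcript length and to the mapped total of the library. A difference is the mean of the Isg15-high tumors minus the mean of the Isg15-low tumors on this scale, which understates the change of genes at low levels. Of 14535 genes in the table, 12041 averaged at least 1 FPKM over the tumors and were tested, 205 of them on the interferon lists. The median difference of all genes tested was 0.01, and 51.6% of them had a positive difference.

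FPKM keeps no depth, so the libraries were compared by what the values hold. Genes above 0 numbered 11978 to 12863 in Isg15-high and 11829 to 12328 in Isg15-low tumors, and short non-coding RNA took 7.53% to 31.7% of the summed FPKM in Isg15-high and 5.29% to 30.5% in Isg15-low tumors. None of 6 library measures passed the test (exact permutation test, two-sided, lowest p = 0.297, adjusted p = 0.904 for all 6). Epcam, an adhesion molecule of epithelium in general, was listed at 0 in X520T (Isg15-high) and was 0.55 in X9387T (Isg15-low). It was 6.18 or more in the other 12 tumors. Fos, an immediate-early gene, ranged from 3.69 to 9.99 in Isg15-high and from 3.39 to 9.87 in Isg15-low tumors.

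Isg15 (chr4:156199424-156200818, GRCm38) was 7.43 in X2265T, 7.12 in X520T, 7.03 in X154T, 6.51 in X1463T1, 5.89 in X731T, 5.84 in X606T and 5.78 in X1515T among the Isg15-high tumors. Among the Isg15-low tumors it was 3.85 in X149T1, 3.73 in X370T, 3.70 in X9387T, 3.65 in X1418T, 3.37 in X493T2, 2.40 in X493T1 and 2.34 in X147T. The levels fell off gradually, with no gap at either edge of the sets. The nearest tumor below the Isg15-high set was X153T at 5.64, and the nearest above the Isg15-low set was X738T at 4.04.

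**Figure D1:**
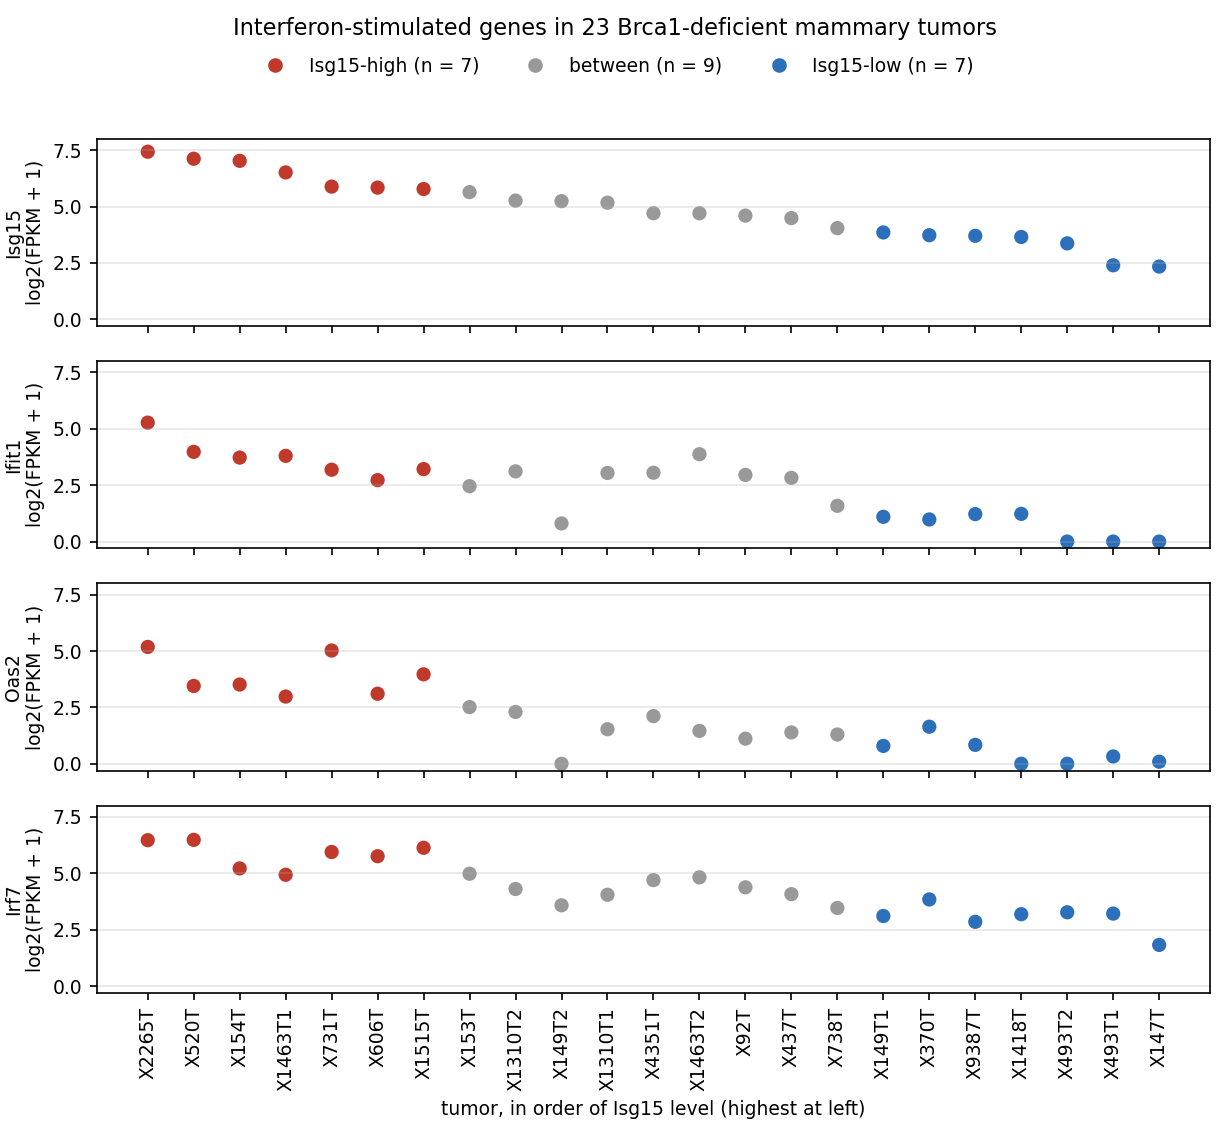
Levels of Isg15, Ifit1, Oas2 and Irf7 (y axes, log2(FPKM + 1)) in each of the 23 tumors, ordered along the x axis by Isg15 with the highest at the left; red, Isg15-high; grey, between; blue, Isg15-low. All 4 genes separate the red from the blue tumors, and X149T2, a tumor between the sets, has Isg15 at 5.24 with Oas2 listed at 0. Short non-coding RNA took 72.7% of the summed FPKM of X149T2.

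The genes that sit beside Isg15 in the response went with it. Ifit1 (chr19:34640871-34650009), which binds viral RNA, was 2.72 to 5.27 (median 3.72) in Isg15-high tumors and 0 to 1.23 (median 0.98) in Isg15-low tumors. Oas2 (chr5:120730333-120749853), an antiviral oligoadenylate synthetase, was 2.98 to 5.18 (median 3.51) and 0 to 1.64 (median 0.32) in the same order of sets. Neither gene overlapped between the sets, and in Isg15-low tumors Ifit1 was listed at 0 in X493T2, X493T1 and X147T.

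Among receptors and signalling proteins 3 of 22 members did not overlap between the sets and were higher in Isg15-high tumors, beside 0.241% of all genes tested. The choice of tumors by Isg15 favors such genes. Irf7 (chr7:141262706-141266481), the transcription factor that amplifies type I interferon, was 4.93 to 6.48 in Isg15-high tumors and 1.82 to 3.84 in Isg15-low tumors. Usp18, on the effector list, which removes Isg15 from proteins and dampens the type I receptor, was 2.51 to 5.21 in Isg15-high tumors and 0 to 1.76 in Isg15-low tumors. Stat2, a transcription factor of the type I pathway, was 2.88 to 4.80 in Isg15-high and 0.71 to 2.63 in Isg15-low tumors. Irf5, an interferon regulatory factor, overlapped, at 2.30 to 4.31 in Isg15-high and 0 to 3.82 in Isg15-low tumors. None of the 12 interferon genes on the list of ligands was in the table, so the ligand itself could not be followed.

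In all, 29 of the 12041 genes (0.241%) were higher in each Isg15-high tumor than in every Isg15-low tumor, and 0 genes were lower in that way. Of these 29, 27 were on the interferon lists and 2, Mid1 and G530011O06Rik, were not. The 27 include the oligoadenylate synthetases and their relatives (Oas1a, Oas1g, Oas2, Oas3, Oasl1, Oasl2), the dynamin-like antiviral GTPases Mx1 and Mx2, the chaperone Rtp4, and Ly6a, a surface protein known as a mouse stem cell marker. They were named here because their sets did not overlap, so after their values were seen. Ifit3 and Ifit3b, Oas1a and Oas1g, and Apol9a with its neighbor are near copies, and how their reads were shared between copies is not given.

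**Figure D2:**
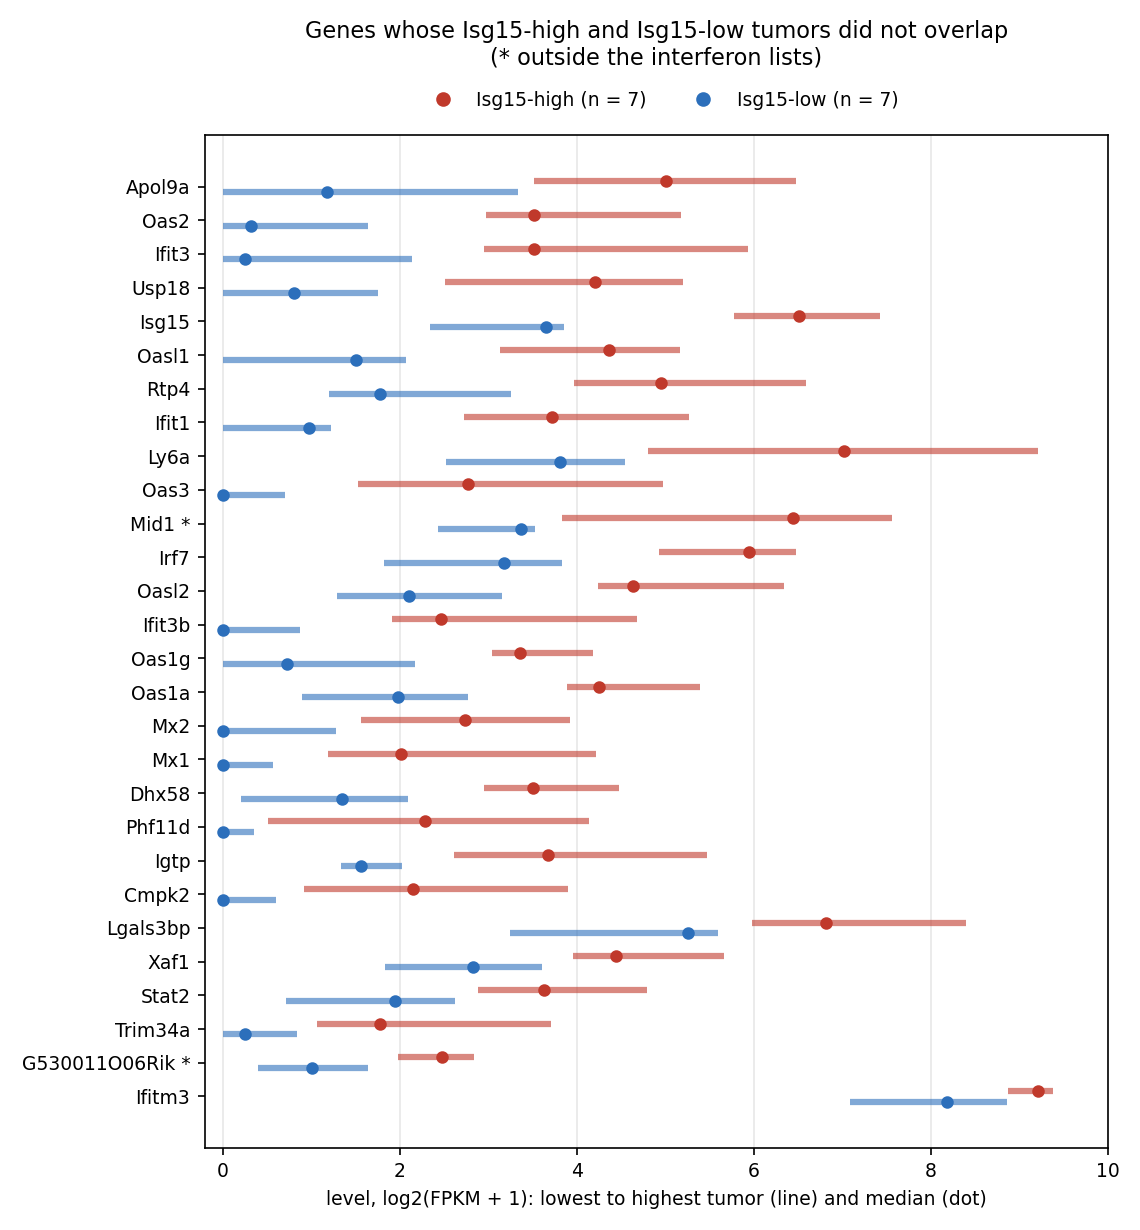
Of the 29 genes with no overlap between the sets, 28 are plotted, in order of the difference from Apol9a (3.45) to Ifitm3 (1.08); x axis, level in log2(FPKM + 1); lines run from the lowest to the highest tumor and dots are medians, with Isg15-high (red) above Isg15-low (blue). The lines do not meet for any gene plotted, and the 2 starred genes, Mid1 and G530011O06Rik, are outside the interferon lists.

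Promoters of these genes were read from RefSeq (GRCm38.p6, 250 bases before to 50 after each start) and searched on both strands for GAAANNGAAA, the repeat in the element that the STAT and IRF proteins bind. Of the 27 interferon genes 19 had a promoter in the RefSeq table, and 12 of the 19 (63.2%) held the repeat, against 3.81% of the 9009 tested genes with a promoter and 3.44% of all 32851 windows. It was in 10 of 11 promoters of the interferon-inducible GTPases, in 34 of 86 of the interferon effectors, in 3 of 20 of the receptors and signalling proteins and in 3 of 15 of the sensors of nucleic acid. In the MHC lists it was in 4 of 20 promoters of class I and 1 of 6 of class II presentation. The stretches below show where it lies in 5 of them, with 10 bases on each side and the repeat or overlapping repeats in capitals, 5′ to 3′ on the strand of the gene.
Isg15, chr4:156200865-156200906: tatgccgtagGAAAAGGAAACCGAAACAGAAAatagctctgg
Ifit1, chr19:34640775-34640823: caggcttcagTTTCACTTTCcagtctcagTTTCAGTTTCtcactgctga
Oas1a, chr5:120907520-120907555: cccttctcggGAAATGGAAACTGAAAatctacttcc
Igtp, chr11:58199512-58199541: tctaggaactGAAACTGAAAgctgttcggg
Ifitm3, chr7:141010706-141010752: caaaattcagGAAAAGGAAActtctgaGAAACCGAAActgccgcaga
Isg15 holds 3 overlapping copies and Ifit1 2 separate ones on the opposite strand. No match was found in the windows of Irf7, Oasl1, Oasl2, Mid1 or G530011O06Rik. A match is a run of letters and was not read as a site. The lists were made of genes known to respond to interferon, so a high share was set in advance and says nothing about these tumors. Near copies with the same stretch, such as Oas1a and Oas1g, were counted separately.

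Across the whole list of interferon effectors, 106 of 108 members tested had a positive difference, with a median of 1.32. As a score (the mean over members of each gene's z value across the 23 tumors), the effectors ran from 0.15 to 1.59 in Isg15-high tumors and from −1.04 to −0.13 in Isg15-low tumors. The tumors of the Isg15-high set were far from uniform. X2265T had the highest effector score and X606T the lowest, and the order of tumors by the effectors without Isg15 would put X153T in the upper set in place of X606T and X149T2 in the lower set in place of X9387T.

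The interferon-inducible GTPases, which attack vacuoles of intracellular microbes, were positive in 16 of 16 members with a median of 1.39. Igtp was 2.61 to 5.47 (median 3.68) in Isg15-high tumors and 1.33 to 2.03 (median 1.56) in Isg15-low tumors. Gbp3 was 3.21 to 6.33 and 0.33 to 3.22, with Isg15-high first, the top value being X2265T. The sets overlapped for Gbp2, at 3.30 to 5.93 in Isg15-high and 1.09 to 4.71 in Isg15-low tumors. X606T was the lowest Isg15-high tumor for this list, with a score of −0.52, inside the range of −1.12 to −0.31 of the Isg15-low tumors.

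Receptors and signalling proteins were positive in 20 of 22 members (median 0.44), with scores of 0.07 or more in Isg15-high and −0.05 or less in Isg15-low tumors, and sensors of nucleic acid in 16 of 20 (median 0.36). Among the sensors Dhx58, a helicase of the RIG-I family, was 2.96 to 4.48 in Isg15-high and 0.21 to 2.098 in Isg15-low tumors, whereas Zbp1, Ifih1 and the DNA exonuclease Trex1 overlapped. MHC class I presentation was positive in 27 of 31 members with a median of 0.48 (0.75 without X493T1), smaller than that of the effectors. Tap1, the peptide transporter of this pathway, was 3.52 to 6.04 in Isg15-high and 2.83 to 5.86 in Isg15-low tumors, and the immunoproteasome subunit Psmb9 was 3.96 to 6.50 and 2.97 to 6.22. Both therefore overlapped over most of their range.

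MHC class II genes, which present antigen on macrophages, dendritic cells and B cells, had the highest list median, 1.73, with 9 of 9 members positive. H2-Eb1 was 5.93 to 9.05 (median 8.08) in Isg15-high tumors and 1.80 to 7.19 (median 6.48) in Isg15-low tumors. X147T and X370T, both Isg15-low, had H2-Eb1 at 1.80 and 2.26, whereas the other 5 Isg15-low tumors were at 6.03 or above. The median difference of the class II list was 1.02 without X370T and 0.48 without X370T and X147T, while that of the effectors was 1.26 without both.

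Few genes passed the test beyond the interferon genes when tumors were ranked by Isg15. Of the genes tested, 25 (0.208%) passed an adjusted p of 0.05 (limma with a mean-variance trend, Benjamini-Hochberg over the 12041 genes), all of them higher in Isg15-high tumors. Of these 25, 23 were on the interferon lists, which the choice of tumors by Isg15 selects for. Of the 11836 genes outside the lists 2 (0.0169%) were higher, Mid1 and G530011O06Rik, and 0 (0%) were lower, the lowest adjusted p of a lower gene being 0.332. The unadjusted p of these 2 genes was 3.39e-05 and 8.1e-05 (limma). Their adjusted p was pooled with the interferon genes, whose low p-values the choice of tumors favors. Pooling made the threshold easier to pass than an adjustment over the 11836 genes alone, which was not run. As the 2 lowest of 11836, these unadjusted p-values are too high to pass at 0.05 without the pooling. The 2 calls therefore owe their place to the interferon genes. At an unadjusted p of 0.05, 237 genes outside the lists (2%) were higher and 126 (1.06%) were lower, so 65.3% of them were higher. Together these shares are below the share that a p of 0.05 marks where no gene differs, so they are not read as a result. The split of higher and lower depended on scaling. It was 193 higher and 208 lower after quantile normalization. It was 176 higher and 202 lower after centring each tumor on its median, which moved the median of all genes to −0.04. It also depended on the tumors chosen. Ranking by the effectors without Isg15, which exchanges 1 tumor in each set, gave 12 genes higher and 11 lower past the adjusted threshold outside the lists, and 581 higher and 574 lower at an unadjusted p of 0.05.

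Mid1 (chrX:169685199-170005736, plus strand, protein-coding) encodes a microtubule-binding ubiquitin ligase of the TRIM family. Its level in Isg15-high tumors was 7.57 in X154T, 6.52 in X606T, 6.49 in X520T, 6.45 in X2265T, 6.25 in X731T, 4.29 in X1463T1 and 3.84 in X1515T. In Isg15-low tumors it was 3.53 in X493T2, 3.49 in X149T1, 3.47 in X1418T, 3.38 in X9387T, 2.81 in X147T, 2.62 in X370T and 2.43 in X493T1. The Isg15-low tumors were tight, whereas the Isg15-high tumors split into 5 above 6 and 2 near the edge of the Isg15-low range. The difference was 2.81 with a standard error of 0.49 (limma, adjusted p = 0.0227, higher in 7 of 7 tumors, n = 7 per set).

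G530011O06Rik (chrX:169975043-169978917) is a non-coding RNA that lies inside the span of Mid1 on the opposite strand. It was named after its values were seen, because it was 1 of the 2 genes past the threshold. Its level was 1.98 to 2.84 (median 2.48) in Isg15-high tumors and 0.40 to 1.65 (median 1.01) in Isg15-low tumors. The difference was 1.37 with a standard error of 0.26 (limma, adjusted p = 0.0443). RefSeq places a second copy on the Y chromosome, and the library kit named in the labels does not mark strand, so its reads could not be told apart from those of Mid1 or of the copy. In the 14 tumors the levels of both genes had a Pearson r of 0.79, which is a description of genes whose reads may be shared. In laboratory mice the far end of Mid1 reaches into the pseudoautosomal region, which varies between strains; the mice were of mixed background, and the part of strain in these values was not tested.

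Both calls were fragile, and in the main comparison neither gene would have passed without the adjustment pooled with the interferon genes. The adjusted p-values below are pooled in the same way. Mid1 had an adjusted p of 0.0632 to 0.0745 without any 1 of X2265T, X520T, X731T, X370T, X493T1 or X147T, and 0.216 without X370T and X147T together. Over all 31 alternatives the adjusted p of Mid1 ran from 0.00319 to 0.32 and passed in 19, with a positive difference in each. When 1 tumor was left out, G530011O06Rik passed only without X606T or without X1418T, and its adjusted p over 30 alternatives ran from 0.0254 to 0.272 and passed in 6. With 8 tumors on each side, Mid1 had a difference of 2.19 and an adjusted p of 0.32, because X153T (3.23) and X738T (5.42) then entered the sets.

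The 9 tumors that the sets left out give values of Mid1 and G530011O06Rik that the comparison did not use. Their Isg15 level, however, is what placed them between the sets. In them Mid1 ranged from 2.39 to 7.08 and did not rise with Isg15. Across these 9 tumors Pearson's r with Isg15 was −0.49 (exact permutation p = 0.181, adjusted over 2 genes 0.362) and Spearman's rho was −0.40 (exact permutation p = 0.291, adjusted 0.582). G530011O06Rik ranged from 0.97 to 3.13, with r = 0.05 (exact permutation p = 0.903, adjusted 0.903) and rho = 0.13 (exact permutation p = 0.744, adjusted 0.744). Leaving out X153T and X738T, the tumors farthest from the median, r was −0.42 for Mid1 and −0.07 for G530011O06Rik. The ranking itself confined Isg15 to 4.04 to 5.64 in these 9 tumors, so they could hardly show a relation, and no conclusion is drawn from them. The relation was also chosen after the values of both genes were seen.

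**Figure D3:**
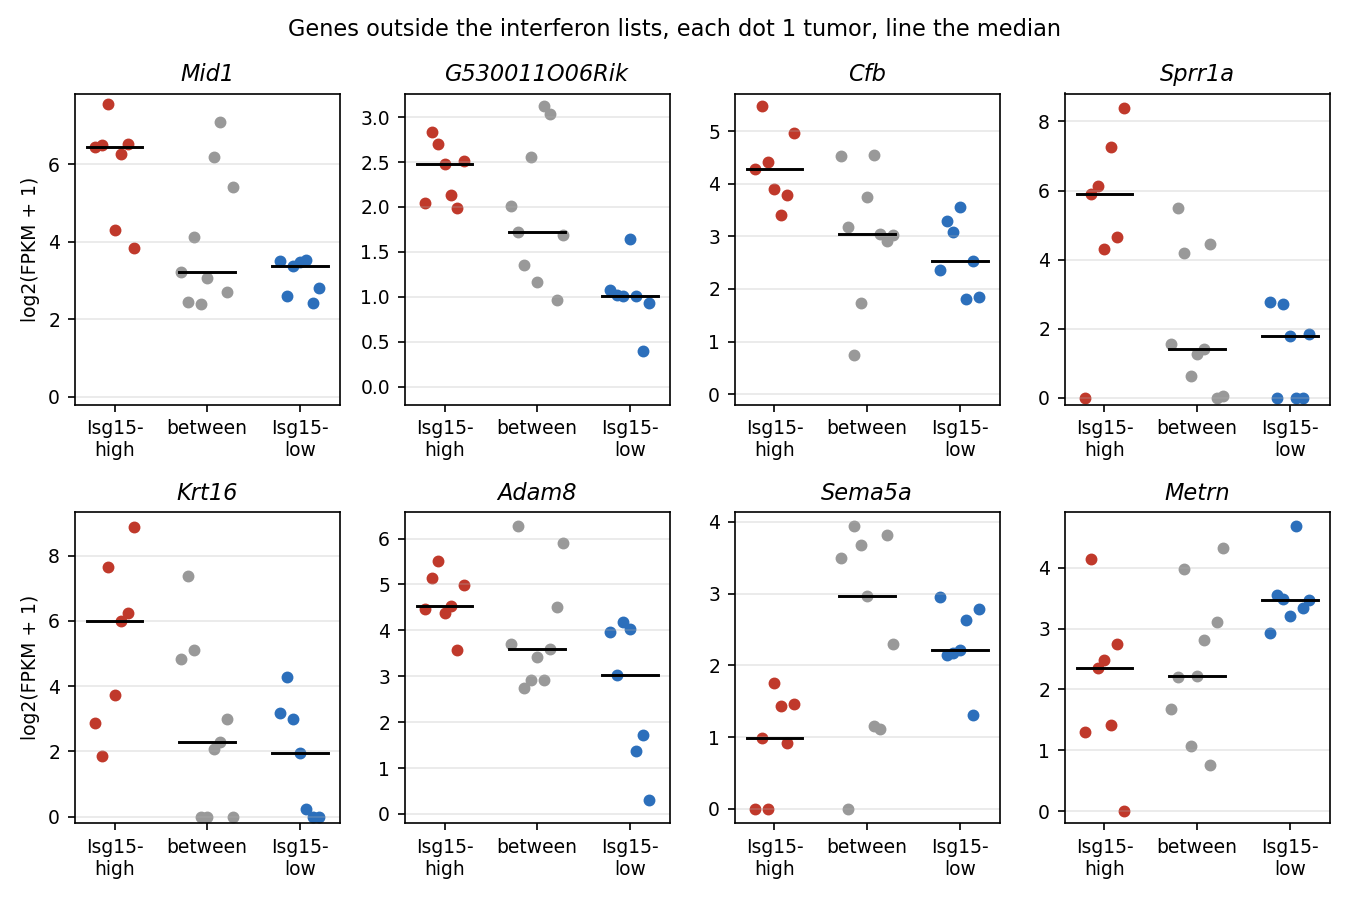
Levels (y axes, log2(FPKM + 1)) of 8 genes outside the interferon lists in Isg15-high (red, n = 7), between (grey, n = 9) and Isg15-low tumors (blue, n = 7); each dot is 1 tumor and lines are medians. Mid1 and G530011O06Rik do not overlap between red and blue but reach 7.08 and 3.13 in grey tumors, and the other 6 genes overlap and did not pass the test.

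The genes next in line on the higher side did not pass the test and are given as values, with adjusted p from limma. That adjustment was again pooled with the interferon genes, also where a gene passed in an alternative. Cfb (chr17:34856374-34862518), the protease of the alternative complement pathway, was 3.41 to 5.48 (median 4.28) in Isg15-high and 1.81 to 3.55 (median 2.54) in Isg15-low tumors, with a difference of 1.68 and a standard error of 0.37 (adjusted p = 0.125). Only X731T, at 3.41, lay inside the Isg15-low range. Cfb passed with 8 tumors on each side, where its difference was 1.66 and its adjusted p 0.0446. Ass1, which makes argininosuccinate for arginine synthesis, was 2.91 to 4.63 in Isg15-high and 0 to 4.30 in Isg15-low tumors, with a difference of 1.99 and a standard error of 0.55 (adjusted p = 0.476). It passed in 1 of 31 alternatives, without X1418T, the highest of the Isg15-low tumors (difference 2.42, adjusted p = 0.0384), and over the alternatives its adjusted p ran from 0.0384 to 1.

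Sprr1a and Krt16 followed among the genes of lowest p. Sprr1a, a small proline-rich protein of the cornified envelope, was listed at 0 in X2265T and was 4.30 to 8.39 in the other 6 Isg15-high tumors, against 0 to 2.77 in Isg15-low tumors. Its difference was 3.93 with a standard error of 1.00 (adjusted p = 0.294), and without X2265T it passed with a difference of 4.80 and an adjusted p of 0.00606. Krt16, a keratin of wounded epithelium, was 1.86 to 8.89 (median 5.995) in Isg15-high and 0 to 4.29 (median 1.96) in Isg15-low tumors, with a difference of 3.52 (adjusted p = 0.679). X1515T and X154T had the highest Krt16 and X520T, the tumor with Epcam at 0, the lowest of the Isg15-high set.

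The other genes on this side had smaller differences than Sprr1a and Krt16. Adam8, a surface metalloprotease of leukocytes, was 3.57 to 5.52 in Isg15-high and 0.31 to 4.19 in Isg15-low tumors. Lcp1, the actin bundler of leukocytes, was 4.80 to 7.15 and 2.83 to 5.99 in the same order, and Cotl1, which binds actin filaments, was 6.66 to 7.62 and 4.44 to 6.91. Apobr, a lipoprotein receptor of macrophages, and Ssu72, a phosphatase of RNA polymerase II, had differences of 1.88 and 0.86. The adjusted p of these 5 genes lay between 0.574 and 0.807.

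On the lower side the differences were of the same kind, overlapping and short of the threshold. Sema5a (chr15:32244810-32696341), a guidance protein of the semaphorin family, was 0 to 1.75 (median 0.99) in Isg15-high and 1.31 to 2.95 (median 2.22) in Isg15-low tumors, with a difference of −1.38, a standard error of 0.36 and an adjusted p of 0.332. In the tumors between the sets it ran from 0 to 3.94, over the span of both. Metrn, a secreted protein of glia, was 0 to 4.15 in Isg15-high and 2.93 to 4.69 in Isg15-low tumors, with 6 of 7 Isg15-high tumors below every Isg15-low tumor and X520T above most of them. St3gal5, a sialyltransferase of ganglioside synthesis, was 1.63 to 3.88 and 3.27 to 4.95, and Rhoj, a small GTPase of endothelium, was 2.38 to 3.98 and 3.33 to 5.23. Bambi, a decoy receptor of TGF-beta, was 0 to 3.14 in Isg15-high and 1.18 to 4.22 in Isg15-low tumors.

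The other 5 genes of this tail included a pair that were near 0 across the Isg15-high set. Dcpp1, a secreted protein of salivary glands, was listed at 0 in 6 Isg15-high tumors and was 1.497 in X606T, against 0 to 8.54 in Isg15-low tumors, with the top value in X147T. Camkv, a kinase-like protein, was 0.18 in X1463T1 and listed at 0 in the other 6 Isg15-high tumors, against 0 to 4.88 in Isg15-low tumors. Matn2, Ttc12 and Vps37d had differences of −1.54, −1.17 and −1.27, and all 5 genes had an adjusted p of 0.836 or more.

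The gene lists outside interferon had no member past the threshold, beside 0.0169% of the genes outside the lists. The basal mammary list, named for the outer layer of the duct, had the highest median of them, 1.59, with 13 of 15 members positive. The members given below are all keratins, with no contractile gene among them, so they do not identify a cell type. Krt14 was 2.43 to 9.84 (median 8.09) in Isg15-high and 0.84 to 6.98 (median 4.88) in Isg15-low tumors, with 4 Isg15-high tumors above all Isg15-low tumors. Krt6a was 0 to 8.57 (median 5.58) and 0 to 4.05 (median 2.41), and Krt5 was 0 to 9.41 (median 2.31) and 0 to 4.62 (median 0). Krt6b was 0 to 6.52 in Isg15-high and 0 to 1.84 in Isg15-low tumors, with a difference of 2.91 (limma, adjusted p = 0.846). The basal score ran from −0.69 to 1.35 in Isg15-high tumors and from −0.71 to 0.02 in Isg15-low tumors, so the spread was within the Isg15-high set, from X520T at the bottom to X731T at the top.

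The leukocyte lists did not all point one way. The macrophage list was positive in 26 of 27 members (median 1.34), the neutrophil list in 10 of 11 (median 1.24) and the pan-leukocyte list in 18 of 18 (median 1.01). The dendritic cell list was positive in 2 of 6 members (median −0.30) and the B and plasma cell list in 0 of 2 (median −0.60). Scores of the macrophage list overlapped between the sets, from −0.77 to 1.11 in Isg15-high and from −2.06 to 1.28 in Isg15-low tumors. C1qb, a complement subunit of tissue macrophages, was 5.21 to 8.81 (median 7.56) in Isg15-high and 0.43 to 8.43 (median 6.09) in Isg15-low tumors. X370T had C1qb at 0.43 and X147T at 2.29, and Ptprc, the pan-leukocyte phosphatase CD45, was listed at 0 in both. Summed over the macrophage list, FPKM was 1077 to 8239 in Isg15-high and 226 to 7394 in Isg15-low tumors.

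The leukocyte medians were smaller without those 2 tumors. Without X370T and X147T, an alternative chosen after the data were seen, the median difference was 0.10 for the macrophage list, 0.40 for the pan-leukocyte list and −0.02 for the endothelial list, which had 15 of 15 members positive and a median of 0.61 with them. The neutrophil median was then 0.88 and the basal mammary median 1.67. With 1 tumor left out, the macrophage median fell to 0.77 without X370T, the neutrophil median to 0.68 without X1463T1 and 0.75 without X9387T, and the endothelial median to 0.34 without X370T and 0.35 without X147T. Among neutrophil genes S100a9, a calcium-binding alarmin, was 2.21 to 8.78 in Isg15-high and 0 to 5.52 in Isg15-low tumors, and Mmp9 was 2.33 to 7.02 and 0.03 to 4.70. T and NK cell markers were too low to follow, with 2 of 33 genes tested, so these cells could not be followed.

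**Figure D4:**
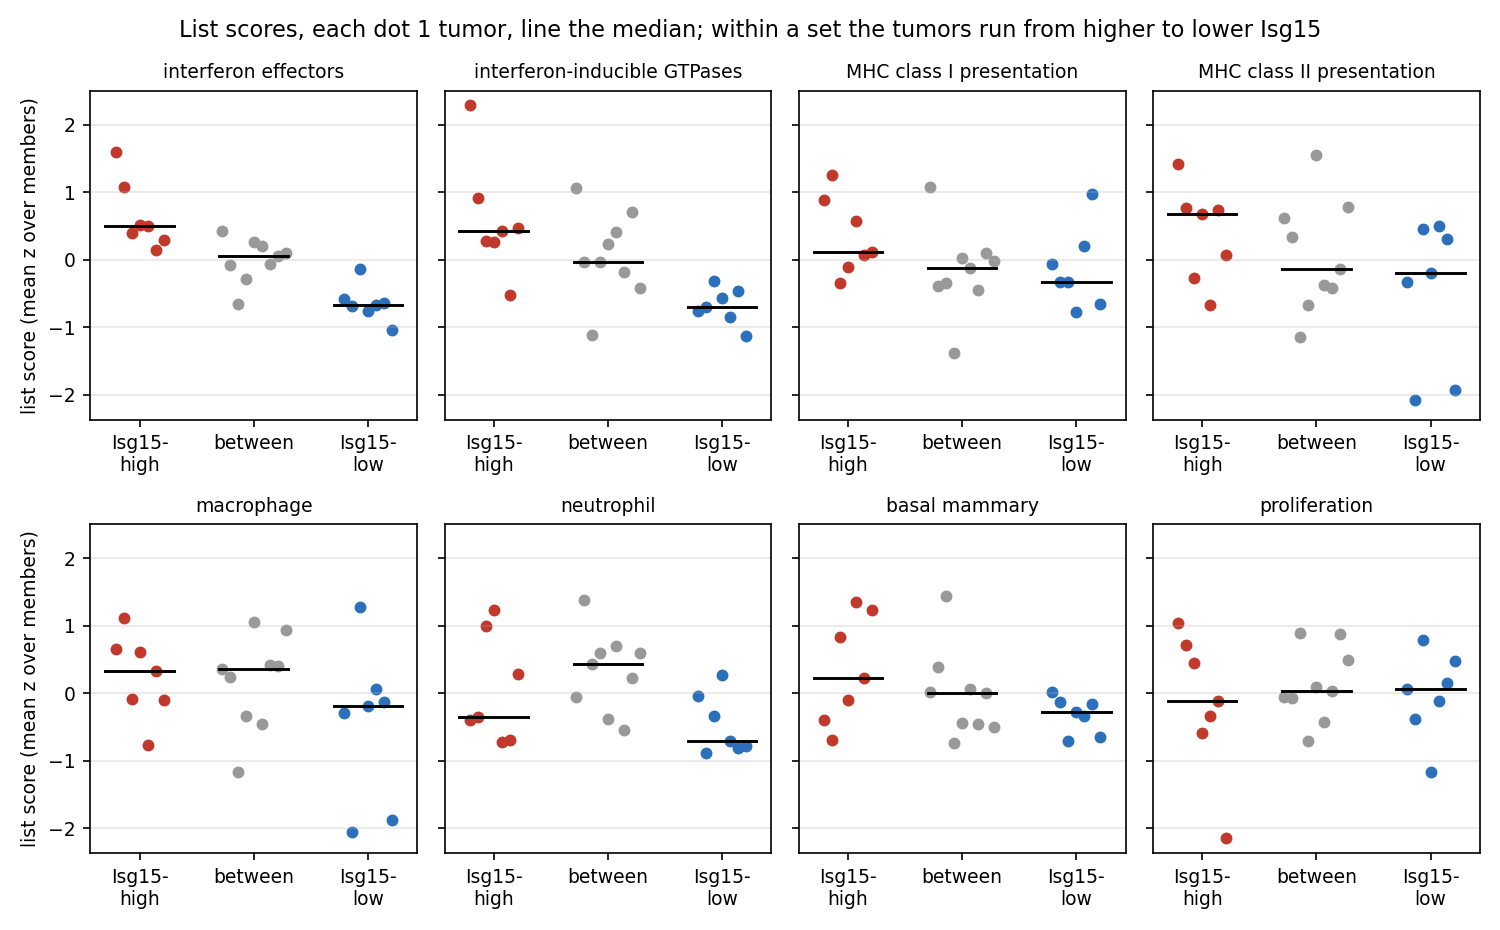
Scores of 8 gene lists (y axes, mean z value over members) in Isg15-high (red, n = 7), between (grey, n = 9) and Isg15-low tumors (blue, n = 7), each dot 1 tumor and lines medians, with tumors of a set running from higher to lower Isg15. Of these 8 lists the effectors alone separate red from blue; the 2 lowest blue dots for macrophage and MHC class II genes are X370T and X147T.

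Inflammatory lists stood between these. Complement genes were positive in 13 of 16 members (median 0.49), targets of NF-kB in 24 of 32 (median 0.56) and T cell checkpoint and costimulation genes in 13 of 15 (median 0.78). The complement median was 0.32 without X731T and 0.28 without X1515T. The NF-kB median was 0.31 to 0.36 without any 1 of X154T, X1515T, X493T2 or X493T1. C3, the central complement protein, was 4.94 to 7.20 in Isg15-high and 3.02 to 6.199 in Isg15-low tumors. Il1b, the cytokine of inflammasomes, was 2.87 to 8.17 in Isg15-high and 1.03 to 5.65 in Isg15-low tumors, whereas Lif, a cytokine of the interleukin-6 family, was 1.94 to 6.37 and 2.997 to 7.91. Tnfrsf14, a receptor that regulates lymphocytes, was 0.67 to 2.46 and 0 to 1.22, with a difference of 1.08 (limma, adjusted p = 0.991).

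Tumor cell programs had medians on both sides of that of all genes. Hormone-sensing luminal genes were positive in 8 of 9 members (median 0.82, and 0.20 without X731T), p53 targets in 15 of 21 (median 0.38, and 0.20 without X1515T) and genes of hypoxia and glycolysis in 20 of 24 (median 0.30, and 0.20 without X493T2 or without X493T1). Proliferation genes were positive in 11 of 35 members with a median of −0.10, and Mki67 was 0.08 to 4.16 in Isg15-high and 1.77 to 5.05 in Isg15-low tumors, with X606T at 0.08. Homologous recombination genes were positive in 11 of 23 (median −0.02), immediate-early genes in 8 of 30 (median −0.31) and cytosolic ribosomal proteins in 23 of 68 (median −0.11). These medians depended on single tumors, running from −0.28 to 0.22 for proliferation (above 0 without X1515T, X9387T or X147T), from −0.16 to 0.11 for homologous recombination (above 0 without X154T, X1463T1, X1515T, X9387T, X493T2 or X493T1), from −0.68 to −0.02 for immediate-early genes (0.03 without X370T and X147T) and from −0.25 to 0.01 for ribosomal proteins (above 0 without X147T). Luminal progenitor and alveolar genes were positive in 5 of 17 members with a median of −0.41. Its sign was not stable, since it ran from −0.98 without X9387T to 0.17 without X520T, was also above 0 without X149T1 or X370T, and was 0.06 without X370T and X147T. In that list Mfge8, a milk fat globule protein, was 6.66 to 9.79 in Isg15-high and 6.90 to 10.5 in Isg15-low tumors. Brca1 itself was 0 to 2.26 and 0.31 to 2.103, and Trp53 was 2.07 to 6.54 and 1.32 to 5.91, each with Isg15-high first and without passing the test (difference 0.23 and 1.32, limma adjusted p = 1 for both). The luminal keratin Krt8 was 5.29 to 10.02 in Isg15-high and 7.36 to 10.9 in Isg15-low tumors. The low-Epcam tumors X520T (5.29) and X9387T (7.36) were the lowest of their sets. Next lowest were X154T at 8.62 in the Isg15-high set and X493T1 at 7.42 in the Isg15-low set.

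**Figure D5:**
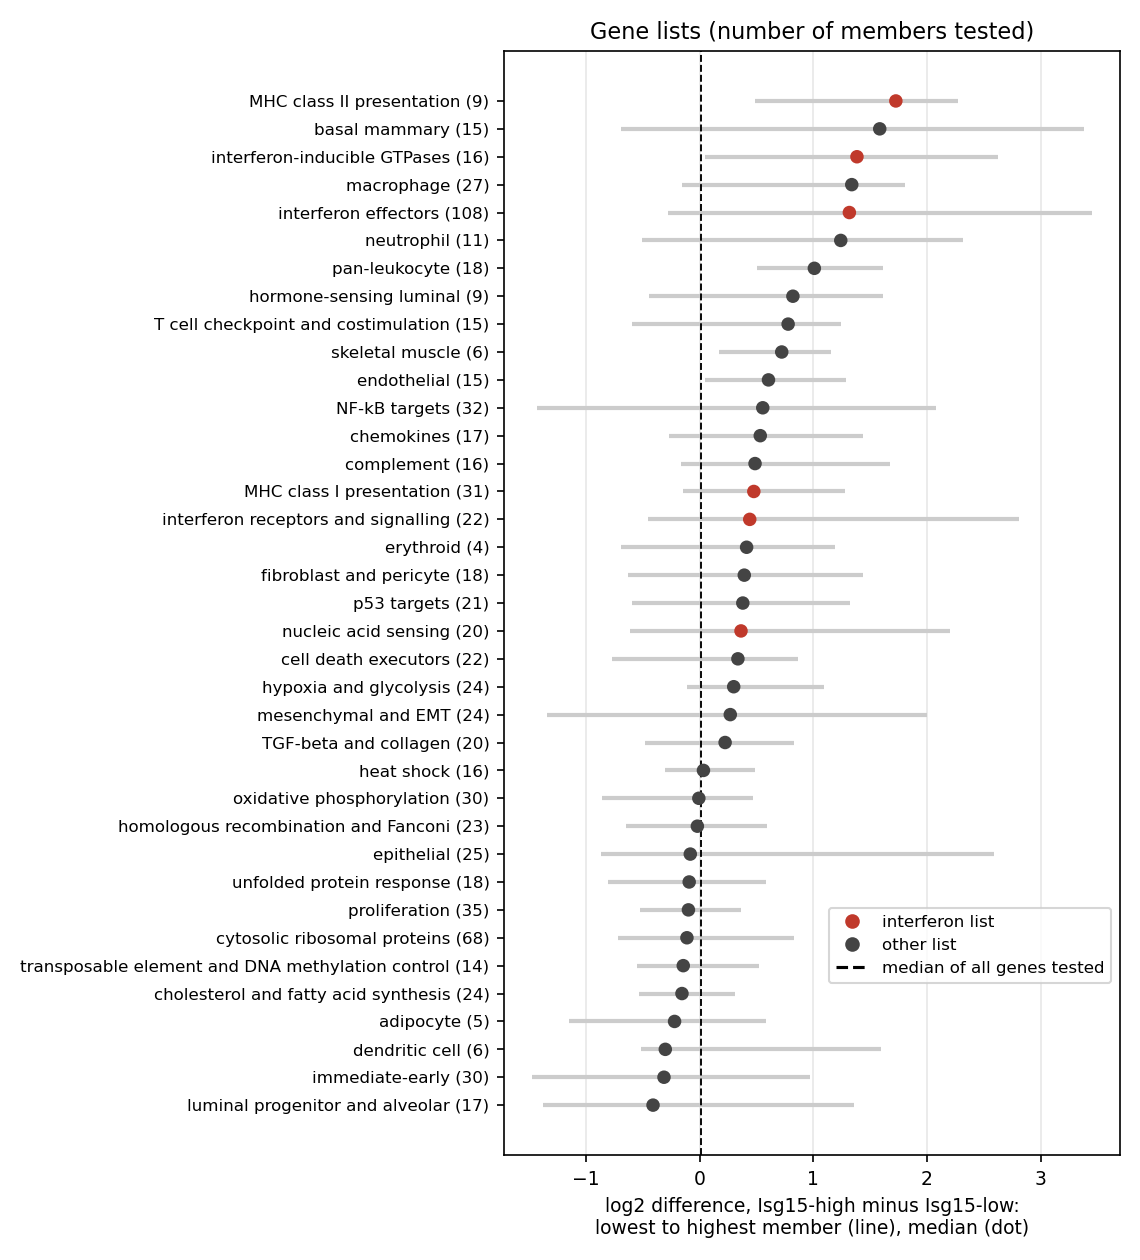
Median log2 difference, Isg15-high minus Isg15-low (x axis), of each list with 4 or more members tested; dots are medians (red, interferon lists; dark grey, other lists), lines run from the lowest to the highest member and the dashed line is the median of all 12041 genes, 0.01. MHC class II, at 1.73, and the basal mammary list, at 1.59, lie at the top, and the luminal progenitor list, at −0.41, is the lowest of the lists plotted.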

How the data were processed

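The deposited table holds log2(FPKM + 1) for 14535 gene symbols in 23 tumors. Per the submitters' processing notes, the authors trimmed reads with Trimmomatic 0.35, aligned them to mm10 with TopHat2 2.0.13 and estimated FPKM with Cufflinks 2.2.1; the study's methods give a different TopHat version. FPKM keeps no counts, so depth is unknown and no counting error is given, and a value of 0 may be a failed estimate. Tumors were ranked by Isg15. Genes averaging at least 1 FPKM were fitted with limma 3.58.1 (R 4.3.3, trend, 7 against 7, Benjamini-Hochberg adjustment); the script was tested on simulated data. Library measures were compared with exact permutation tests (scipy 1.17.1). Coordinates are from GENCODE M21 (GRCm38), for which 13982 symbols matched directly, 447 by an older symbol and 106 not at all, and promoters are from RefSeq. The members, the 40 gene lists (7 of interferon genes, 33 others) and the tests were chosen with earlier results of these data known. Genes named are the 3 marker genes Isg15, Ifit1 and Oas2, a fixed set of 9 genes, up to 15 genes past the threshold in each direction filled to 10 with those of lowest p, and up to 4 genes with the largest difference per list. Interferon-list members of other lists were taken out of them. Alternatives changed the pseudocount, filter, scaling, covariates, set size, ranking and the tumors left out. Some of the genes the rule selects are not reported here.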

Additional observations from a re-analysis of the deposited data

Results flagged for a closer look

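In each set of 7 tumors, 1 tumor was marked where its gap to the next exceeded Dixon's 95% critical share of the range. From 254 sets of values came 20 marks. Chance alone marks about 5% only of normally distributed sets. Here many genes and scores move together, and a set with a single tumor above 0 (Camkv, Dcpp1, Tnfsf10) is always marked. The number of marks is therefore not compared with that share.

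Many of the marks fall on the low-Epcam tumors. X520T (Isg15-high) was low for Epcam (0, next 6.97), Krt8 (5.29, next 8.62), Lcn2, a secreted iron-binding protein of luminal progenitors (2.24, next 7.76), and the epithelial score (−1.97, next 0.26). X9387T (Isg15-low) was low for Epcam (0.55, next 6.18), Lcn2 (1.58, next 11.2), Mfge8 (6.90, next 9.40) and the epithelial score (−1.74, next 0.11).

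The other marks were spread over several tumors. X2265T (Isg15-high) was high for Gbp3 (6.33, next 4.26) and low for Matn2 (0, next 2.54). X606T was high for Dcpp1 (1.497, next 0) and for the skeletal muscle score (2.02, next 0.56), X1463T1 for Camkv (0.18, next 0) and X731T for the hormone-sensing luminal score (2.18, next 0.17). Among Isg15-low tumors, X147T was low for Dhx58 (0.21, next 1.33) and for the cell death score (−0.75, next −0.24), and X370T was low for the T and NK cell score (−1.56, next −0.32) and high for Tnfsf10 (1.36, next 0). The T and NK cell score rests on 2 tested genes and does not measure these cells. X493T2 was high for Metrn (4.69, next 3.55) and X149T1 for Krt5 (4.62, next 1.44).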

How the results depend on the processing

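With the adjustment pooled over all genes tested, the number of genes outside the interferon lists called higher was 2. It was 1 with a pseudocount of 0.1, a mean FPKM of 5 or more, quantile normalization, median centring, Epcam as a covariate, 1 tumor per title number, title number as a random block, 6 against 6, the slope on Isg15 over 23 tumors (Mndal) or robust variance moderation, and 0 in tumors with Epcam of 5 or more, with 3 sets over 23 tumors and without X370T and X147T. Leaving out each tumor in turn gave 0 to 3, and 0 without X520T, X731T, X370T, X493T1 or X147T. The number called lower was 0 under all these settings. Ranking by the effector list without Isg15, which changes 1 tumor in each set, gave 12 higher (among them Cfb, Apobr and Nos2) and 11 lower (among them Bambi and Mfge8); the cause was not tested. These counts rest on 7 tumors a set, and calls of single genes outside the lists depend on which tumors enter.

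Genes far from the threshold changed sign. Epcam was 0.022 with Fos as a covariate, 0.16 with 1 tumor per title number, 0.73 with 8 against 8 and 0.64 without X370T and X147T. Krt8 was 0.11 in tumors with Epcam of 5 or more, 0.18 with 8 against 8, 0.00863 as a slope and 0.24 without X370T and X147T. Vim was 0.23 in the effector ranking, 0.17 with 6 against 6 and 0.052 as a slope; Fos was 0.35 with Epcam of 5 or more and 0.030 without X370T and X147T; Mki67 was 0.041 in the effector ranking and 0.012 without X370T and X147T; and Csn1s1 was −0.37 in the effector ranking. Without 1 tumor, Epcam ran from −1.27 to 1.13, Krt8 from −0.50 to 0.42, Vim from −0.52 to 0.22 and Lcn2 from −2.50 to 0.089. No paired analysis was possible because the labels give no replicate number shared by 2 groups. The correlation of tumors sharing a title number, 0.49, was estimated over the 23 tumors, since the 14 hold 1 such pair.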
